A study of Homo sapiens with 9 samples.

Results

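The 3p arms of the let-7 hairpins are the strands opposite the let-7 guide miRNAs. The 10 described here, hsa-let-7a-3p, hsa-let-7a-2-3p, hsa-let-7b-3p, hsa-let-7c-3p, hsa-let-7d-3p, hsa-let-7e-3p, hsa-let-7f-1-3p, hsa-let-7f-2-3p, hsa-let-7g-3p and hsa-let-7i-3p, were taken by name from the 2652 miRNA names of the count table. The prefix hsa, for human, is left out from here on. They were followed through 3 groups of 3 small RNA libraries from ES-2 cells, an established line derived from ovarian cancer. The question behind the series was which miRNAs of these cells associate with the PD-L1 3'UTR. In miTRAP, the method used, a bait transcribed in vitro is tagged with MS2 loops and coupled to resin by a protein that binds these loops. Lysate is passed over it, and the RNA that stays on the bait is eluted. The groups were the input, which is RNA of the lysate, the MS2 control with a bait of MS2 loops alone, and the PD-L1 3'UTR with a bait that joins this sequence to the loops. The latter pair are called the MS2 trap and the PD-L1 trap. All 3 groups used untreated ES-2 cells of WT genotype. Per the methods a larger amount of the PD-L1 bait than of the MS2 control bait was immobilized, so bait sequence and bait amount cannot be told apart. The table lists miRNAs only, so marker genes of the cell line were not examined. The methods state for the study's experiments in general that replicates were biological, and the labels number them without naming the culture of each library.

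A miRNA hairpin is cut by Drosha and Dicer into a short duplex, of which an Argonaute protein usually keeps one strand, the guide, while the other, the passenger, is discarded. In the let-7 family, known for repressing growth-promoting and oncofetal mRNAs such as LIN28 and HMGA2, the guide usually lies in the 5p arm. The 3p arm is therefore as a rule the rarer product. A loaded miRNA pairs with its target mainly through its seed, bases 2 to 8 from the 5′ end.

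The mature sequences are shown because the members differ in their seeds while the 5p arms share one. Sequences for 9 of the 10 members were found in RefSeq (GRCh38.p14), all but let-7f-2-3p. They are written 5′ to 3′ with the seed in capitals.
let-7a-3p: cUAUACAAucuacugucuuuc
let-7b-3p: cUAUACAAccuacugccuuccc
let-7f-1-3p: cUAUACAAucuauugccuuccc
let-7d-3p: cUAUACGAccugcugccuuucu
let-7e-3p: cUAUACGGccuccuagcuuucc
let-7c-3p: cUGUACAAccuucuagcuuucc
let-7a-2-3p: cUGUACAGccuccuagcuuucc
let-7g-3p: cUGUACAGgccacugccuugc
let-7i-3p: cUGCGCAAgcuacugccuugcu
For comparison, these are the guides from the hairpins of let-7a-3p and let-7d-3p.
let-7a-5p: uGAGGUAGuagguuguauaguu
let-7d-5p: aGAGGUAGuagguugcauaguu

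The 9 sequences held 6 distinct seeds. The seed UAUACAA was shared by 3 members (let-7a-3p, let-7b-3p and let-7f-1-3p), UGUACAG was shared by 2 members (let-7a-2-3p and let-7g-3p), and the remaining 4 members had a seed of their own. All 9 began with C, and 9 positions carried the same base in every one. Sequences of the same seed can be close outside it too: let-7b-3p and let-7f-1-3p differed at 2 positions. Members of different seeds can be close as well: let-7a-2-3p differed at 2 positions from let-7c-3p and at 2 from let-7e-3p. How the counting treated reads that could be placed on more than one miRNA is not given in the sources used here, so the split of reads between such near copies is uncertain.

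The hairpins lie in several host genes, given here on GRCh38.p14 by gene span, without exon or intron placement. On chromosome 9, let-7a-3p of the first hairpin (chr9:94176013-94176033, plus strand), let-7f-1-3p (chr9:94176409-94176430, plus strand) and let-7d-3p (chr9:94178895-94178916, plus strand) lay within MIRLET7A1HG. The second locus of let-7a-3p (chr22:46112800-46112820, plus strand) and let-7b-3p (chr22:46113745-46113766, plus strand) lay within MIRLET7BHG. The arm let-7a-2-3p (chr11:122146523-122146544, minus strand) lay within MIR100HG, and let-7c-3p (chr21:16539883-16539904, plus strand) within MIR99AHG. The spans of SPACA6, WDR82 and MIRLET7IHG held let-7e-3p (chr19:51692838-51692859, plus strand), let-7g-3p (chr3:52268280-52268300, minus strand) and let-7i-3p (chr12:62603747-62603768, plus strand).

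The input libraries held 3794799 to 5983577 counts, those of the MS2 trap 1156261 to 2236535 and those of the PD-L1 trap 672824 to 1237652. Levels are given as CPM, counts scaled to the library size with TMM factors, a scaling by which most miRNAs are taken as unchanged. A count of 3 was worth 0.676 to 4.02 CPM, so the rarest members could not be resolved in the shallowest library. The test was edgeR's quasi-likelihood test over 408 miRNAs with Benjamini-Hochberg adjustment and a threshold of 0.05. Of the 10 members, 8 passed the filter on low counts, and let-7f-2-3p and let-7g-3p did not.

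Together the 3p arms were a small part of every library, and their part of all let-7 reads was highest with the PD-L1 bait. They held 0.0613% ± 0.00282 of all counts in the input, 0.241% ± 0.0171 in the MS2 trap and 0.138% ± 0.0166 in the PD-L1 trap (SD, n = 3). The 8 let-7 5p arms of the same hairpins held 10.7% ± 2.22, 31.8% ± 0.839 and 3.19% ± 0.507. The 3p arms thus made up 0.587% ± 0.119 of let-7 reads in the input, 0.753% ± 0.0704 in the MS2 trap and 4.19% ± 0.392 in the PD-L1 trap. The last 3 libraries, at 3.74% to 4.48%, lay above the other 6, at 0.454% to 0.806%. These are shares of the reads of each library and do not give the absolute amount of RNA held by a bait.

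The order of abundance was led by the same members in each group. let-7d-3p came first and let-7a-3p next in all 3 groups, and their libraries did not overlap each other or those of the member that followed. In the input, let-7b-3p and let-7f-1-3p came next and overlapped, whereas in both traps let-7a-2-3p held that place without overlap with its neighbours. In the MS2 trap each member from let-7c-3p down to let-7i-3p overlapped the next in order. In the PD-L1 trap let-7f-1-3p lay clear of let-7b-3p, and from let-7b-3p downward each member overlapped the next. The plot of CPM by library shows these levels on a log axis.

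**Figure D1:**
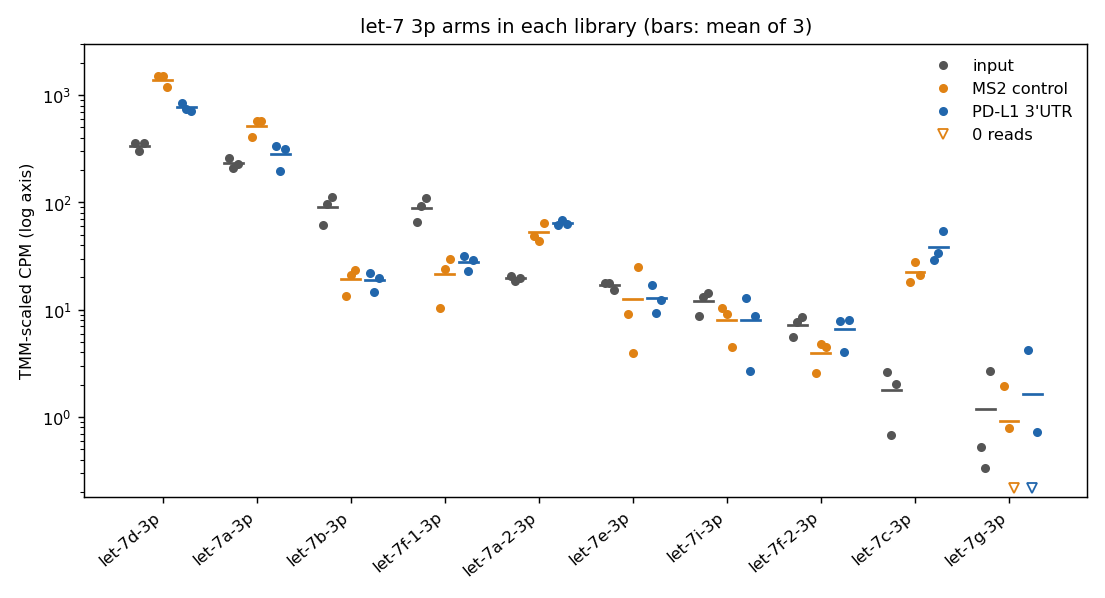
Level of each let-7 3p arm in each library, in TMM-scaled CPM on a log axis, with members along the x axis and points colored by group. Open triangles at the bottom stand for libraries with 0 reads. let-7d-3p is highest in every group, and let-7c-3p lies far lower in the input than in both traps.

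The level of the most abundant member, let-7d-3p, was higher in both traps than in the input, and highest in the MS2 trap. Its level was 359, 299.7 and 358 CPM in input replicates 1 to 3, 1502, 1512 and 1185 CPM in the MS2 trap and 838, 751 and 718 CPM in the PD-L1 trap. The 3 groups did not overlap. The mean of the PD-L1 trap, 769 ± 61.5 CPM, lay between 339 ± 33.7 in the input and 1399.6 ± 186 in the MS2 trap (SD, n = 3). On the log2 scale let-7d-3p was lower with the PD-L1 bait than with the MS2 trap (-0.86 ± 0.15, SE, adjusted p = 0.000563) and higher than in the input (1.183 ± 0.15, adjusted p = 7.56e-05). The MS2 trap exceeded the input by 2.05 ± 0.16 (adjusted p = 1.59e-06).

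The same order of groups by mean was seen for let-7a-3p, the product of hairpins on chromosomes 9 and 22. It stood at 262, 209 and 227 CPM in the input, at 407, 573 and 580.4 CPM in the MS2 trap and at 337, 196 and 316 CPM in the PD-L1 trap. The MS2 trap lay above all other libraries, whereas the input and the PD-L1 trap overlapped. let-7a-3p was lower with the PD-L1 bait than with the MS2 trap by a log2 value of -0.87 ± 0.23 (SE, adjusted p = 0.00710). Its difference from the input was 0.29 ± 0.23 and did not pass the test (adjusted p = 0.290). With scaling by library totals that difference was 0.86 and passed (adjusted p = 0.00534). The MS2 trap was above the input by 1.16 ± 0.23 (adjusted p = 0.00111).

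Both let-7c-3p and let-7a-2-3p were higher in each trap than in the input. For let-7c-3p the input held 2.63, 0.674 and 2.03 CPM, which were only 10, 2 and 9 reads. The MS2 trap had 18.1, 27.8 and 21.2 CPM and the PD-L1 trap 29.0, 33.5 and 53.7 CPM. None of the groups overlapped. With so few input reads, let-7c-3p passed the filter on low counts through the traps, where it was high, so the size of its difference from the input is uncertain. Against the input let-7c-3p was higher by 4.37 ± 0.46 with the PD-L1 bait (log2, SE, adjusted p = 1.88e-05) and by 3.58 ± 0.46 in the MS2 trap (adjusted p = 5.92e-05). Between the baits the value was 0.79 ± 0.39 and did not pass (adjusted p = 0.104).

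The arm let-7a-2-3p had 20.5, 18.5 and 19.8 CPM in the input, 49.1, 44.01 and 65.1 CPM in the MS2 trap and 62.3, 68.4 and 63.1 CPM in the PD-L1 trap. Both traps lay above the input in every library, and the traps overlapped. The log2 difference from the input was 1.71 ± 0.23 with the PD-L1 bait (SE, adjusted p = 9.57e-05) and 1.42 ± 0.23 in the MS2 trap (adjusted p = 0.000281). Between the baits it was 0.30 ± 0.22 (adjusted p = 0.279).

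The opposite held for let-7b-3p and let-7f-1-3p, which share a seed with let-7a-3p and were lower in both traps than in the input. Levels of let-7b-3p were 61.8, 96.8 and 112 CPM in the input, 13.6, 21.0 and 23.5 CPM in the MS2 trap and 21.9, 14.8 and 19.6 CPM in the PD-L1 trap. For let-7f-1-3p they were 66.0, 92.4 and 110.2 CPM, then 10.3, 24.2 and 29.5 CPM, then 31.9, 22.8 and 29.0 CPM. In both cases the input lay above all 6 trap libraries and the traps overlapped. let-7b-3p was lower than the input by a log2 value of -2.24 ± 0.32 with the PD-L1 bait (SE, adjusted p = 0.000149) and -2.21 ± 0.31 with the MS2 trap (adjusted p = 0.000117). For let-7f-1-3p these values were -1.67 ± 0.37 (adjusted p = 0.00233) and -2.07 ± 0.37 (adjusted p = 0.000545). Between the baits neither passed, with -0.03 ± 0.33 for let-7b-3p and 0.40 ± 0.38 for let-7f-1-3p.

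No test of level was passed by let-7e-3p and let-7i-3p. let-7e-3p had 17.9, 17.9 and 15.3 CPM in the input, 9.05, 3.97 and 24.97 CPM in the MS2 trap and 17.0, 9.39 and 12.3 CPM in the PD-L1 trap. The MS2 trap spanned the other groups, and its replicate 3 stood above the other 8 libraries. Without that library let-7e-3p was lower in the MS2 trap than in the input by -1.60 (log2, adjusted p = 0.0133), against -0.48 ± 0.55 with it (SE, adjusted p = 0.444). let-7i-3p had means of 12.1 ± 3.01, 8.001 ± 3.06 and 8.04 ± 5.06 CPM in the input, MS2 control and PD-L1 trap (SD, n = 3), which overlapped. Against the input the log2 values of let-7i-3p were -0.50 ± 0.51 with the PD-L1 bait and -0.57 ± 0.49 with the MS2 trap, and with scaling by library totals the values of both members turned positive.

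The untested members were rare. let-7f-2-3p, from the hairpin on the X chromosome, had 21, 23 and 38 reads in the input, 4, 12 and 6 in the MS2 trap and 11, 3 and 11 in the PD-L1 trap. let-7g-3p had 2, 1 and 12 reads, then 3, 2 and 0, then 6, 0 and 1. Neither level could be compared at this depth.

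In counts, 0 of 8 tested members were higher and 2 of 8 were lower with the PD-L1 bait than with the MS2 trap, where 31.4% of all tested miRNAs were higher and 28.7% were lower. Libraries of these groups did not overlap for 3 of the 8, beside 65.7% of all tested miRNAs. Against the input 3 were higher and 2 lower with the PD-L1 bait, beside 34.1% and 32.4% of all tested miRNAs, and 5 did not overlap, beside 74.8%. In the MS2 trap 4 were higher and 2 lower than in the input, beside 32.8% and 37% of all tested miRNAs, and 6 did not overlap, beside 75.5%. The members higher than the input in each trap included let-7c-3p, which passed the filter on low counts through the traps. The members' median log2 differences were 0.09, -0.04 and 0.34 in these 3 comparisons, and those of all tested miRNAs were 0.02, 0.04 and 0.02. The 3 comparisons share libraries and are not independent of each other.

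Across the 9 libraries the members fell into like patterns by Pearson correlation of log2 CPM, given as a description over libraries that share their group and scaling. The highest values were 0.96 for let-7b-3p with let-7f-1-3p and 0.96 for let-7a-2-3p with let-7c-3p. In each of these pairs the sequences differed at 2 positions, so the split of reads between them is uncertain. Whether this raised the correlations was not tested. The pair of let-7a-2-3p and let-7e-3p, whose sequences also differed at 2 positions, gave -0.21. let-7a-3p, which has the seed of let-7b-3p, gave -0.49 with it. let-7a-2-3p gave -0.92 with let-7b-3p. Outside the family, the 3 of 390 miRNAs most like let-7d-3p were miR-23a-5p at 0.98, miR-340-3p at 0.98 and miR-6808-3p at 0.97. For let-7a-3p they were miR-129-5p at 0.93, miR-3691-5p at 0.92 and miR-3689a-3p at 0.92. Some of these were rare, so their values rest on few reads. miR-6808-3p had 0.789, 0 and 0.225 CPM in the input, and miR-3689a-3p had 0 to 9.84 CPM over the 9 libraries.

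The guide arms of the same hairpins took another course. All 8 let-7 5p arms were lower with the PD-L1 bait than with the MS2 trap, where 28.7% of all tested miRNAs were lower. Their log2 differences ran from -4.31 for let-7i-5p to -0.63 for let-7g-5p, with a median of -2.89. The difference of let-7g-5p lost its call without replicate 3 of the MS2 trap (-0.57) or without replicate 2 of the PD-L1 trap (-0.53). Against the input 7 were lower with the PD-L1 bait, beside 32.4% of all tested miRNAs. The other, let-7b-5p, did not pass at 0.08, and the median of the guides was -1.58. In the MS2 trap 6 were higher than in the input, let-7g-5p was lower at -1.03 and let-7f-5p did not pass at 0.14. Of all tested miRNAs, 32.8% were higher and 37% were lower there. With scaling by library totals, let-7b-5p was higher with the PD-L1 bait than the input (0.66), let-7c-5p and let-7e-5p lost their calls there (-0.40 and -0.44), let-7f-5p was higher in the MS2 trap (0.77) and let-7g-5p lost its call (-0.41). The medians of the guides were therefore -2.89, -1.58 and 1.73, beside 0.09, -0.04 and 0.34 for the 3p arms. The plot of log2 differences by arm sets each 3p arm beside its 5p arm.

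Whether the arms of one hairpin moved apart was tested on the ratio of 3p to 5p reads within each library, in which library scaling cancels. The model held 119 arm pairs of all hairpins, 8 of them let-7. The arms let-7a-3p and let-7a-2-3p share the reference let-7a-5p, so these rows are not independent. Several 5p arms are also near copies of each other, so the split of reads between these references is uncertain too. With the PD-L1 bait against the MS2 trap, the 3p to 5p ratio was higher for 8 of 8 let-7 pairs, where 36.1% of all pairs were higher and 37.8% were lower. The libraries of both groups did not overlap for any of the 8, against 73.1% of all pairs. The median log2 change of the ratio was 3.04 for the let-7 pairs and -0.22 for all pairs. Among the other 111 pairs, 35 were higher and 45 lower, and among 34 of those whose 3p arm had under 10% of the reads of its 5p arm, 11 were higher and 16 lower. The let-7 pairs ranked between 12 and 30 of 119 by size of the rise, so other hairpins moved further. The members' rise here combines the fall of the guide arms with smaller or no called falls of the 3p arms.

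The ratio of let-7d showed which arm led the reads. let-7d-3p made up 22.3%, 27.1% and 28.4% of the reads of both let-7d arms in the input and 29.6%, 32.7% and 27.0% in the MS2 trap. In the PD-L1 trap it made up 77.6%, 76.9% and 74.7%. The 95% Wilson intervals of the last 3, which cover counting error only, ran from 72.3% to 79.8% in all. The 3p arm was thus the minor arm of let-7d in 6 libraries and the major arm in the 3 with the PD-L1 bait. let-7d-5p, the guide, had 5523, 7855 and 4226 reads in the MS2 trap and 341, 168 and 335 reads with the PD-L1 bait. The log2 ratio of let-7d rose by 2.94 ± 0.29 between the baits (SE, adjusted p = 1.42e-09) and by 3.22 ± 0.29 over the input, while 0.28 between the MS2 trap and the input did not pass.

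For let-7i, the largest rise of the ratio among the 8 was seen between the baits, although few reads were behind it. let-7i-3p had 16, 23 and 6 reads in the MS2 trap and 18, 2 and 12 in the PD-L1 trap. Its own level did not pass between the baits, at 0.07 ± 0.53 (log2, SE). let-7i-3p made up 0.0155% ± 0.00598 of let-7i reads in the input, 0.00560% ± 0.00293 in the MS2 trap and 0.102% ± 0.0601 in the PD-L1 trap (SD, n = 3). Its ratio rose by 4.36 ± 0.52 on the log2 scale (adjusted p = 4.41e-08). For let-7c the share of let-7c-3p was 0.191% ± 0.0915, 0.651% ± 0.143 and 8.83% ± 4.14. Within the PD-L1 trap it spanned 5.01% to 13.2%, the latter from 25 reads of let-7c-3p against 164 of let-7c-5p. Its ratio rose by 3.73 ± 0.39 between the baits (adjusted p = 3.82e-09) and was the only one of the 8 that was also higher in the MS2 trap than in the input, by 1.65 ± 0.46 (adjusted p = 0.00262). That difference rests on 10, 2 and 9 input reads of let-7c-3p, which passed the filter on low counts through the traps. Where a mean of at least 10 reads of each arm in every group was required, this pair was not tested.

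The shares of the remaining tested members also rose between the baits. From the MS2 trap to the PD-L1 trap, let-7a-3p went from 0.753% ± 0.195 to 3.67% ± 0.784 of its pair and let-7a-2-3p from 0.0765% ± 0.0204 to 0.891% ± 0.214. The log2 ratios rose by 2.35 ± 0.29 for let-7a-3p and by 3.54 ± 0.31 for let-7a-2-3p. let-7e-3p went from 0.358% ± 0.357 to 2.40% ± 0.636, a rise of the ratio by 3.14 ± 0.54. let-7f-1-3p went from 0.110% ± 0.0483 to 0.594% ± 0.0518, and its ratio rose by 2.46 ± 0.40. The largest adjusted p among the 8 was 1.02e-05, for let-7e-3p. The untested let-7f-2-3p had 0.0143% to 0.0236% in the MS2 trap and 0.114% to 0.150% in the PD-L1 trap, from 3 to 12 reads a library.

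**Figure D2:**
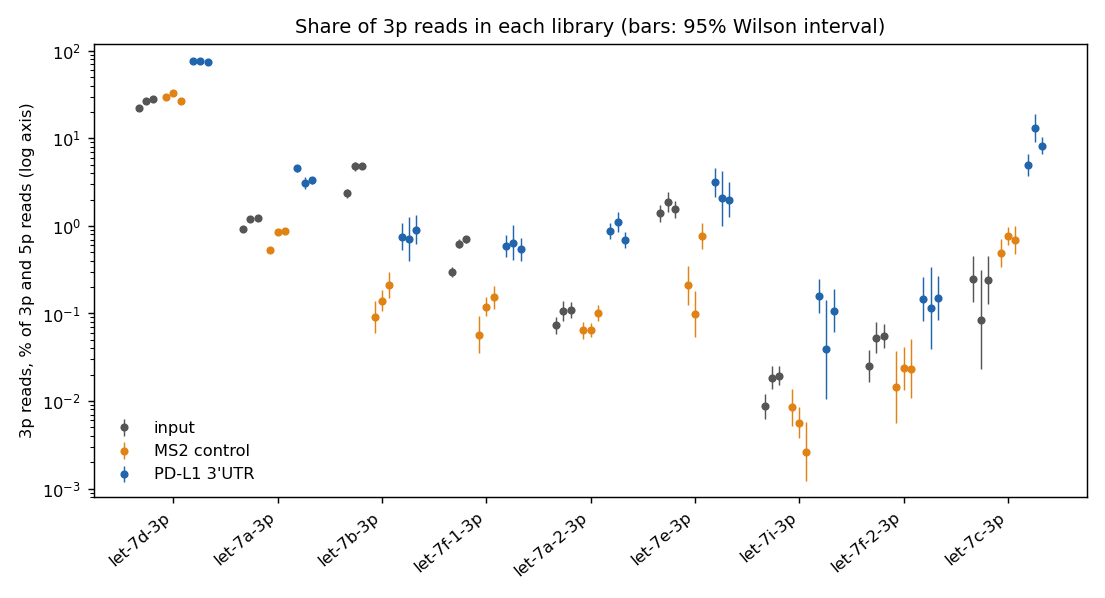
Reads of the 3p arm as a percent of the reads of both arms of its pair, by library, on a log axis. Points are libraries colored by group, and bars are 95% Wilson intervals. let-7g-3p is left out because some libraries had 0 reads. let-7d-3p reaches 74.7% to 77.6% with the PD-L1 bait, against 22.3% to 32.7% in the other libraries.

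Against the input the let-7 pairs did not move as one. With the PD-L1 bait the 3p to 5p ratio was higher for 5 of 8, lower for 1 and not called for 2, beside 30.3% higher and 34.5% lower of all pairs, and libraries did not overlap for 7, beside 73.1%. The 5 were those of let-7c-3p (5.37 ± 0.45), let-7d-3p (3.22 ± 0.29), let-7a-2-3p (3.20 ± 0.31), let-7i-3p (2.91 ± 0.47) and let-7a-3p (1.74 ± 0.29). With 10, 2 and 9 input reads, let-7c-3p passed the filter on low counts through the traps, so the size of its change is uncertain. The ratio of let-7b-3p was lower, by -2.30 ± 0.37. The ratios of let-7e-3p at 0.62 and let-7f-1-3p at 0.20 did not pass (adjusted p = 0.267 and 0.655). In the MS2 trap 1 ratio was higher than in the input, 4 were lower and 3 did not pass, beside 37.8% higher and 33.6% lower of all pairs, and libraries did not overlap for 6, beside 75.6%. The 4 lower ones were let-7b-3p (-4.81 ± 0.37), let-7e-3p (-2.52 ± 0.47), let-7f-1-3p (-2.26 ± 0.37) and let-7i-3p (-1.45 ± 0.40). With limma on log2 ratios that of let-7i-3p was -1.49 and missed the threshold (adjusted p = 0.0509). The ratio of let-7a-3p, at -0.60 (adjusted p = 0.0593), passed with limma (adjusted p = 0.0476), with the replicate number as a block (adjusted p = 0.0444) and with any of 3 libraries left out.

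The arms of let-7b stood apart. In the MS2 trap let-7b-3p was lower and let-7b-5p higher than in the input, the only let-7 pair with both calls in these directions, which 14.3% of all pairs had. The share of let-7b-3p was 2.36%, 4.81% and 4.83% in the input, and 0.0917%, 0.140% and 0.212% in the MS2 trap. It was 0.755%, 0.716% and 0.911% in the PD-L1 trap, between the others without overlap. Its ratio rose by 2.51 ± 0.41 between the baits (SE, adjusted p = 5.28e-06). The reverse pattern, a 3p arm called higher and its 5p arm called lower than in the input, was seen with the PD-L1 bait for 3 of the 8 pairs, those of let-7d-3p, let-7a-2-3p and let-7c-3p, beside 7.56% of all pairs. Of these, let-7c-3p passed the filter on low counts through the traps, where it was high.

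**Figure D3:**
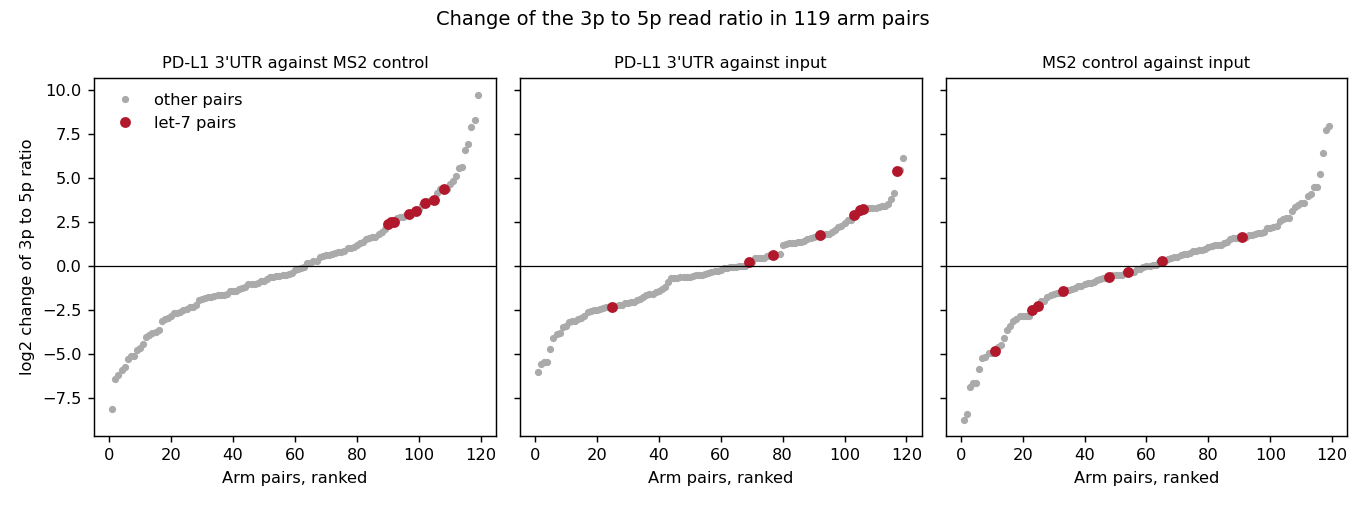
Log2 change of the 3p to 5p ratio for all 119 arm pairs in each comparison, with the 8 let-7 pairs marked. With the PD-L1 bait against the MS2 trap the let-7 pairs lie between 2.35 and 4.36, within the range of all pairs.

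The seeds were also compared with a 3'UTR of the PD-L1 gene CD274, taken from one of its 2 GENCODE transcripts that have one and 2692 bases long. The letters searched on the transcript strand were the reverse complements of the seeds. TTGTACA, opposite the seed of let-7c-3p, occurred 2 times, at positions 2353 to 2359 and 2367 to 2373 counted from the first base after the stop codon. The sites are shown with the match in capitals.
first site: atctgtTTGTACAtgtgca
second site: gtgcatTTGTACAgtaatt
Of 4584 genes whose longest 3'UTR reached that length, 22.8% held TTGTACA in its first 2692 bases, whatever the number of times. The share that held it 2 times or more was not counted. The other letters were not found in this 3'UTR: TTGTATA (let-7a-3p, let-7b-3p and let-7f-1-3p, in 27.9% of these genes), CTGTACA (let-7a-2-3p and let-7g-3p, 17.4%), TCGTATA (let-7d-3p, 1.85%), CCGTATA (let-7e-3p, 1.75%) and TTGCGCA (let-7i-3p, 1.79%). A match is a description of letters, and which stretch of the 3'UTR the bait covered was not analysed here.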

How the data were processed

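Single-end small RNA libraries came from ES-2 cells, 3 each of input, MS2 control and PD-L1 3'UTR. Sample titles gave the group and the replicate number. The authors deposited a table of raw counts, in which each row is a mature miRNA locus and each value the reads assigned to it. Per the submitters' processing notes and the methods, reads were trimmed with cutadapt 1.18, aligned with Bowtie2 2.2.6 to hg38 and counted with featureCounts 1.6.3 on miRBase mature miRNAs. The treatment of reads with several placements is not given in the sources used here. By chi-square on the counts, every pair of replicates differed by more than sampling noise. Pairs with replicate 1 differed most in each group. Their chi-square per degree of freedom was 121 and 156 in the input and 108 and 138 in the MS2 trap. In the PD-L1 trap it was 93.8 and 154. For replicates 2 and 3 it was 8.60, 30.5 and 17.9 in these groups.

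The 2883 loci were summed to 2652 names. filterByExpr, applied with the groups, kept 408 of them. TMM scaling and edgeR 4.0.16 (R 4.3.3; glmQLFit and glmQLFTest, two-sided, all 9 libraries in one model) were used, with Benjamini-Hochberg adjustment over all names and a threshold of 0.05. The SE of a log2 value is its size over the square root of the F statistic. Arm ratios were tested by edgeR on 119 of 912 pairs of 3p and 5p arms, with both arms as columns of each library, the library as block and an arm by group term. The 3p share is the 3p reads over the reads of both arms, with 95% Wilson intervals (scipy 1.17.1). Correlations used log2(CPM + 0.5). Both fits were run on simulated counts. For levels, the simulated spread between replicates was smaller than in these data, so error rates under the spread seen here were not measured.

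The members and lists were chosen with earlier results of these data known. Named miRNAs were the 10 members, the 8 5p arms, miR-98 and the miR-99, miR-100 and miR-125 arms that share a cluster with let-7, and the 3 miRNAs most correlated with each of the most abundant pair of members. Alternatives were DESeq2 size factors, library totals, DESeq2 1.42.0, a fit of the compared groups only, all names unfiltered, names of mean CPM 10 or more, separate loci, robust empirical Bayes, the replicate number as a block and each library left out. For ratios they were limma 3.58.1 on log2 ratios with 0.5 reads added, all pairs with a read of each arm, pairs with a mean of at least 10 reads of each arm in every group, and 3p reads summed over hairpins of one 5p name.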

Additional observations from a re-analysis of the deposited data

How the results depend on the processing

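The counts of members called in each comparison of levels stayed within 1.5 times under every alternative run. The 8 higher ratios between the baits were 8 with each library left out, 7 where pairs with few reads were dropped and 9 where every pair with a read of each arm was kept, since fewer or more pairs were then tested. With at least 10 reads of each arm in every group, the number of members with a higher ratio in the MS2 trap than in the input went from 1 to 0, since the pair of let-7c-3p was dropped. With that filter the counts over all pairs were 28 higher between the baits (against 43) and 25 lower in the MS2 trap than in the input (against 40), from fewer pairs. With no filter 201 miRNAs, against 132, were lower with the PD-L1 bait than in the input. With library totals the median of all log2 differences from the input moved by 0.57 (PD-L1 trap) and 0.63 (MS2 trap), and the share of higher among called miRNAs went from 51.3% to 68.3% and from 47% to 65.7%. Between the baits it moved by -0.05.

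Signs turned only for values that did not pass the test. With library totals these were let-7e-3p and let-7i-3p against the input (0.20 and 0.069 with the PD-L1 bait, 0.14 and 0.058 with the MS2 trap) and miR-98-3p in the MS2 trap (0.33). Between the baits they were let-7e-3p at -0.039 with a mean of at least 10 CPM and let-7i-3p at -0.030 with separate loci. Against the input they were let-7b-5p with the PD-L1 bait (-0.18 with no filter, -0.027 with only the groups compared) and let-7f-5p in the MS2 trap (-0.13 with no filter). Leaving out each library gave -0.23 to 0.087 for let-7b-3p, -0.39 to 1.03 for let-7e-3p and -0.37 to 0.38 for let-7i-3p between the baits, and -0.18 to 0.44 for the ratio of let-7f-1-3p over the input. It gave -0.14 to 0.074 for let-7b-5p and -0.52 to 0.16 for the ratio of miR-98-3p with the PD-L1 bait against the input, and in the MS2 trap against the input -1.60 to 0.0020 for let-7e-3p, -0.077 to 0.24 for let-7f-5p and -0.76 to 0.15 for miR-98-3p. The ratio of let-7a-3p in the MS2 trap against the input, -0.60 (adjusted p = 0.0593), passed with limma (adjusted p = 0.0476) and without replicate 1 of the input or replicate 2 or 3 of the MS2 trap (-0.73, -0.71 and -0.74). That of let-7i-3p lost its call with limma at a value as large (-1.49 against -1.45, adjusted p = 0.0509). The cause of these changes was not tested.

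Of 9 same-numbered pairs of libraries from different groups, 1 had a correlation of deviations over 0.1 (-0.20 to 0.12). Whether same-numbered libraries shared a culture or a batch was not tested. With the replicate number as a block, let-7b-3p between the baits was 0.018, and the ratio of let-7a-3p in the MS2 trap against the input passed (adjusted p = 0.0444), so 5 instead of 4 ratios were lower there. Members under about 10 reads a library could not be resolved at this depth.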

Other observations

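The hairpin of miR-98 is closely related to let-7 and lies beside that of let-7f-2. Its 3p arm did not pass the test in level in any comparison, with log2 values of -0.88 between the baits, -1.20 with the PD-L1 bait against the input and -0.31 with the MS2 trap against the input, while miR-98-5p was at -2.33, -1.19 and 1.14. The value of -1.20 passed with no filter (-1.46), with only the groups compared (-1.28), with the replicate number as a block (-1.38) and without replicate 2 of the MS2 trap (-1.20) or replicate 3 of the PD-L1 trap (-1.82), and that of -0.88 without replicate 2 of the MS2 trap (-1.34). Its 3p to 5p ratio rose by 1.52 between the baits (edgeR's quasi-likelihood test, adjusted p = 0.0176), less than for any of the 8 let-7 pairs. That call was lost without replicate 2 of the MS2 trap (0.94) or replicate 3 of the PD-L1 trap (1.04), and where every pair with a read of each arm was kept (adjusted p = 0.154).

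Some let-7 hairpins are transcribed together with hairpins of the miR-99, miR-100 and miR-125 families, and 5 of 6 listed 3p arms of these were tested. Between the baits 2 were higher (miR-100-3p at 1.54 and miR-125b-2-3p at 1.29), 2 were lower (miR-125a-3p at -1.17 and miR-125b-1-3p at -4.27) and miR-99b-3p at -0.38 did not pass. The last passed with separate loci (-0.47), with a mean of at least 10 CPM (-0.49) and without replicate 2 of the input (-0.51). Of all tested miRNAs, 31.4% were higher and 28.7% were lower in that comparison. miR-125b-1-3p, whose hairpin lies in the cluster of let-7a-2, was also higher in the MS2 trap than in the input by 5.54. The 5 listed 5p arms of these hairpins had a median of 0.44 between the baits, with 2 higher and 0 lower, where the 8 let-7 5p arms had a median of -2.89 with 8 lower.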
